A study of Rattus norvegicus with 6 samples.

Results

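The Hox genes of the rat aortic wall were followed in aortic rings on the day of isolation and after the first day of culture. The members were the rows of the deposited table whose array annotation gave exactly 1 gene symbol of the form Hoxa, Hoxb, Hoxc or Hoxd and a number. The rule itself used symbols only, but it was set with earlier results of these data known. A total of 21 such rows were found, each for a different gene, among 14324 genes with a named row. They covered 5 genes of the HoxA cluster, 6 of HoxB, 4 of HoxC and 6 of HoxD. The other 18 of the 39 Hox genes listed for the rat, among them Hoxa3, Hoxa9, Hoxb5, Hoxb6, Hoxc6, Hoxc8, Hoxc10 and Hoxd8, were not analysed here. Every sample came from male Fisher 344 rats aged 1 to 2 months, with no other treatment or genetic change named in the labels. Day 0 samples were freshly isolated aortic rings, and day 1 samples were rings that had spent 1 day embedded in collagen gel in serum-free EBM medium, with 3 biological replicates per group. Each replicate was RNA from 4 to 6 pooled rings or cultures, so that it mixes all cells of the wall. As a model, the day 1 cultures had lost blood flow and serum, which the design does not separate from the day. Because it is not stated whether different pools drew on the same animals, the p-values reflect pool-to-pool spread only. The values are log2 expression values, 1 per array and row.

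Hox genes encode homeodomain transcription factors that give cells their position along the body axis. In mammals they lie in 4 clusters, HoxA to HoxD, and members of different clusters with the same paralog number descend from 1 ancestral gene. Genes at the 3′ end of a cluster, with low paralog numbers, are activated early and in anterior parts of the embryo, while those with high numbers are used in the trunk, limbs and tail. Mesenchymal cells of adults, including vascular smooth muscle cells and fibroblasts, are known to keep a Hox pattern that reflects where in the body they came from. Hox proteins bind DNA with partner proteins of the Pbx and Meis families, their genes respond to retinoic acid, and their on and off states are held by Trithorax and Polycomb chromatin complexes.

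Hoxa2 and Hoxd1 fell in culture, and Hoxa7 did not pass the test. Hoxd10 was called downward, but all its values lay under the 95th percentile of olfactory receptor genes, a low-signal reference. The 250 bases before the RefSeq gene start (build GRCr8) are shown for these 4 genes, to give the local sequence around the start of each. Capitals mark every match, on either strand, to a Pbx-Hox composite motif (TGATNNAT), a Meis motif (TGACAG), a retinoic acid receptor half-site (AGGTCA) or a CCAAT box (CCAAT), and neighbouring matches can run together. The Hoxa2 sequence lies at chr4:82595693-82595942 on the minus strand, that of Hoxd1 at chr3:80072791-80073040 on the plus strand, that of Hoxd10 at chr3:80001697-80001946 on the plus strand and that of Hoxa7 at chr4:82648242-82648491 on the minus strand.
Hoxa2: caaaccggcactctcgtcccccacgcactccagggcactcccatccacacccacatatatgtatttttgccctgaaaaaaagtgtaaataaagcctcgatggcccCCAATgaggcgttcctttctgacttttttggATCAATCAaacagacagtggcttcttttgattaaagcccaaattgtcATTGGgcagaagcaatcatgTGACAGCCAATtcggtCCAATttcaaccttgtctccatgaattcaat
Hoxd1: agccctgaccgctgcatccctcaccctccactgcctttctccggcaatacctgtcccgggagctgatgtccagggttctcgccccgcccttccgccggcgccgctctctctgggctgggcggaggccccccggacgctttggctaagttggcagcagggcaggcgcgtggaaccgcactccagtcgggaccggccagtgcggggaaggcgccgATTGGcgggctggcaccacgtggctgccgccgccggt
Hoxd10: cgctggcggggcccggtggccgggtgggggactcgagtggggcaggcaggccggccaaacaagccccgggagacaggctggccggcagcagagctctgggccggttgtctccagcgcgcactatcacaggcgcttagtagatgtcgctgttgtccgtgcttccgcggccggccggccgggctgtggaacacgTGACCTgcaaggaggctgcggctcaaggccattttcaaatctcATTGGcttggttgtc
Hoxa7: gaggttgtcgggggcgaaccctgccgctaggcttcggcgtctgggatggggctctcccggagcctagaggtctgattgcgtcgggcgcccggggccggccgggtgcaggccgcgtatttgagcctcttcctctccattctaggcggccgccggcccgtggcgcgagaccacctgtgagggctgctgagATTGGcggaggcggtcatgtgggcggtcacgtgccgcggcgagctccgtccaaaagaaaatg
The Hoxa2 sequence held 1 Pbx-Hox match, on the minus strand from base -114 to base -107 before the start, 1 Meis match from base -47 to base -42 and 4 CCAAT boxes. Base -1 is the last base before the start. The Meis match was followed directly by a CCAAT box from base -41 to base -37. Hoxd1, Hoxd10 and Hoxa7 each held 1 CCAAT box, and Hoxd10 also had 1 retinoic acid receptor half-site. Promoter sequences were matched for 11 of the 21 members, and Hoxa2 was the 1 of these 11 with a Pbx-Hox match. None was matched for a HoxB member, so Hoxb3, Hoxb7 and Hoxb9, which were also called, are not shown. Among 33469 RefSeq promoter windows of the same 250 bases, 7.96% held the Pbx-Hox motif, 15.8% the Meis motif, 14.1% the half-site and 34% a CCAAT box. Of the 11 members, 2 held the Meis motif, 3 the half-site and 6 a CCAAT box. A match describes the letters and is no evidence of binding.

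Among the measured rows, those above the array median in fresh rings were of the anterior and middle paralogs. Several posterior genes, among them Hoxa9, Hoxa10, Hoxc10 and Hoxd11, were not analysed, so this does not cover all posterior Hox genes. Rows of different genes carry different probes, so a row was placed against all rows of its own array and no amount of RNA is compared between genes. The 6 array medians, taken over all 27342 rows, ran from 5.87 to 5.95. Of the 14324 genes, 8696 had a mean over all 6 arrays above the mean array median, against 9 of the 21 Hox members. As a reference for rows with little or no specific signal, 1104 olfactory receptor genes were taken, a reference chosen after the values were seen. Their day 0 means had a median of 3.31, a 95th percentile of 4.98 and a maximum of 9.90. Of the 13 members with paralog numbers 1 to 8, 9 lay above the array median on all 3 day 0 arrays, and 10 lay above the 95th percentile of the olfactory receptor genes on all 3. Among those 9, Hoxa4, Hoxc4 and Hoxd1 stood only at percentiles 49.6, 49.1 and 42.9 of the day 0 means of all genes. Of the 8 members with paralog numbers 9 to 13, 0 lay above the median on any array of either day. Among these 8, only Hoxc12 and Hoxd9 lay above the olfactory 95th percentile on all 3 day 0 arrays, and on day 1 Hoxd9 did so on every array and Hoxc12 did not.

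**Figure D1:**
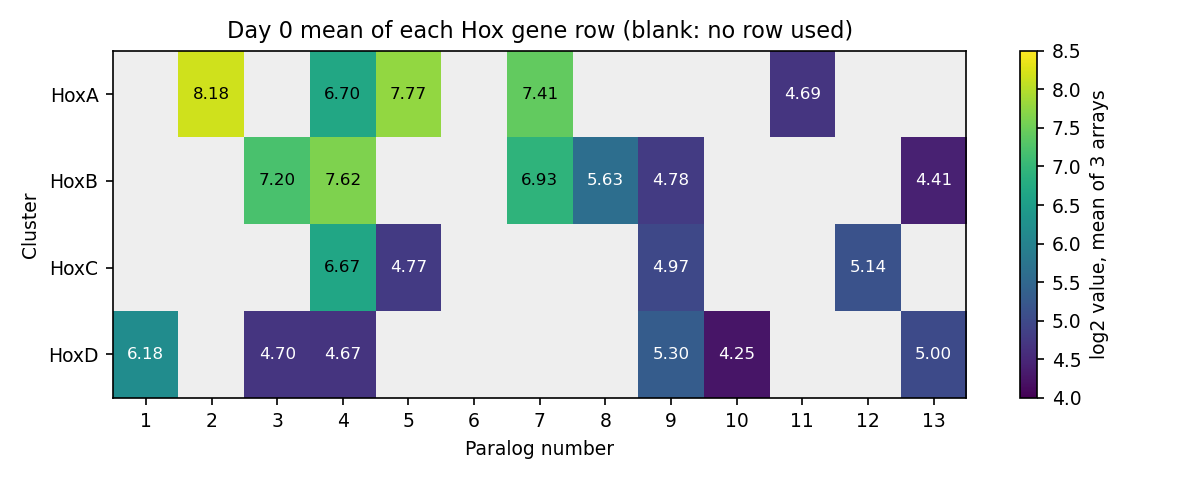
Day 0 mean log2 value (3 arrays) of each Hox gene row, with clusters as rows and paralog numbers as columns; colour and printed number give the mean, and blank cells had no row used. Means of 6.67 or more fall in paralogs 2 to 7 of HoxA, HoxB and HoxC, and paralogs 9 to 13 lie at or below 5.30.

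The clusters differed in how many rows stood above the median. In HoxA it was 4 of 5 members on all 3 day 0 arrays, namely Hoxa2, Hoxa4, Hoxa5 and Hoxa7, and the exception was Hoxa11. In HoxB it was 3 of 6, namely Hoxb3, Hoxb4 and Hoxb7. HoxC had 1 of 4, Hoxc4, and HoxD had 1 of 6, Hoxd1. Within paralog group 4 the members were split by cluster. Hoxa4, Hoxb4 and Hoxc4 had day 0 means of 6.70, 7.62 and 6.67, above the median on every array, while Hoxd4 (4.67) was under the olfactory 95th percentile on all 6. In paralog group 3, Hoxb3 was above the median throughout and Hoxd3 (4.70) was below it. In paralog group 5 the same held for Hoxa5 (7.77) and Hoxc5 (4.77). In the gene table of GRCr8, Hoxa4 and Hoxa5 overlap Hoxa3, and Hoxc4 and Hoxc5 overlap Hoxc6, so probes in shared exons could report either gene.

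**Figure D2:**
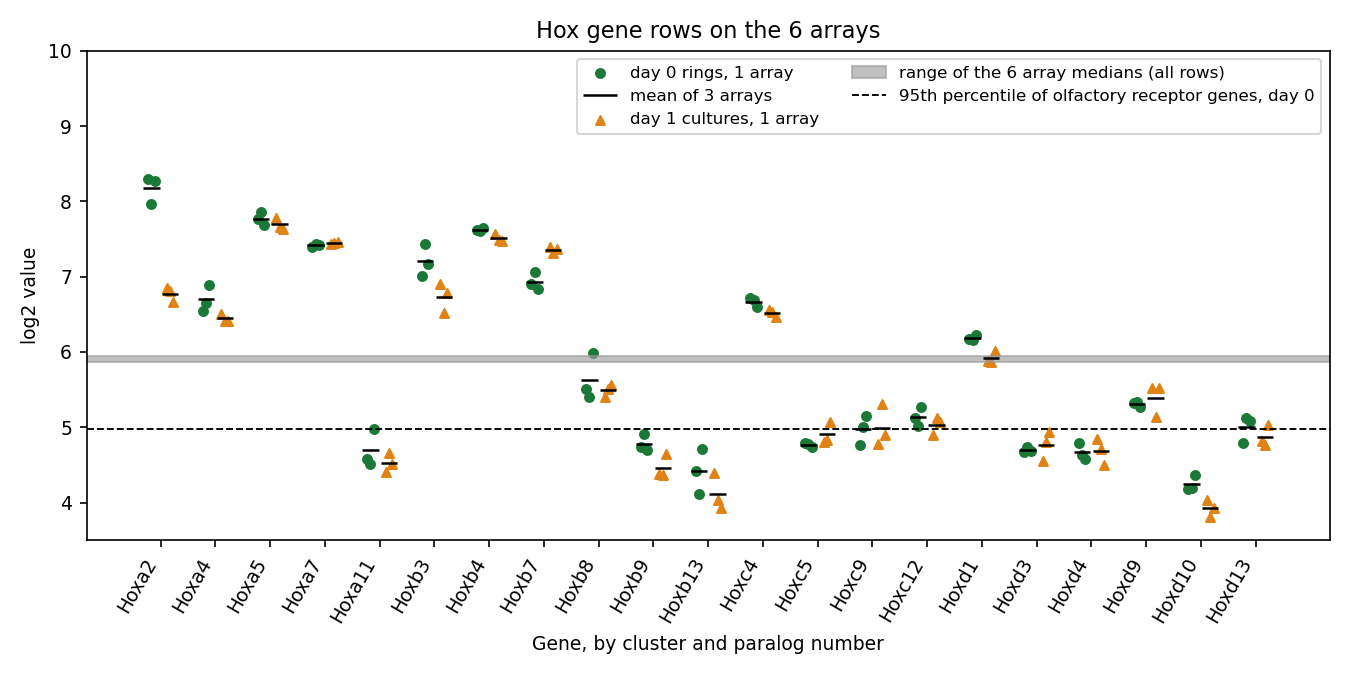
log2 values of the 21 Hox gene rows (vertical axis) by gene, in cluster and paralog order; each point is 1 array, circles for day 0 and triangles for day 1, with black lines for means of 3 arrays, a grey band for the 6 array medians and a dashed line for the 95th percentile of olfactory receptor genes on day 0. Hoxa2 shows the widest gap between the days, and most other genes keep overlapping or near values.

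On day 1, 8 of these 9 members were above the median on every array, the exception being Hoxd1, and 15 of the 21 members did not pass the test of a change. By limma with Benjamini-Hochberg adjustment over all 14324 genes, 6 of the 21 members passed an adjusted p of 0.05: Hoxa2, Hoxb3, Hoxb9, Hoxd1 and Hoxd10 fell, and Hoxb7 rose. That is 28.6% of the members, against 48.3% of all genes (27.6% rose and 20.7% fell). Dim rows are called less often, so genes were also split by their mean over all 6 arrays, above the mean array median (brighter) or not (dimmer). Of the brighter genes 65.4% were called, against 4 of the 9 members there, and of the dimmer genes 21.9% (5.35% rose and 16.5% fell), against 2 of the 12 members, both downward. Those 2 were Hoxb9 and Hoxd10, under the olfactory 95th percentile on every array, and 9.24% of the olfactory receptor genes were called too (8.42% downward). The median log2 change was -0.13 over the members and -0.01 over all genes. A call with a change of at least 2-fold was made for 1 member, Hoxa2, and for 8.24% of all genes. The arrays of the groups did not overlap in 10 of the 21 members and in 56.9% of all genes. The values are relative to the bulk of transcripts, and in pooled tissue fewer cells of a type and less RNA per cell cannot be told apart.

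Hoxa2 had the largest change. It is known for giving identity to the hindbrain and to the second branchial arch. Its log2 values were 8.30, 7.97 and 8.28 on day 0 and 6.84, 6.81 and 6.66 on day 1. All 3 day 0 arrays lay above the upper quartile of their array, all 3 day 1 arrays lay below it but above the median, and the groups did not overlap. Hoxa2 fell by 1.41 ± 0.10 (SE, n = 3 per group) on the log2 scale, a 2.66-fold difference (limma adjusted p = 1.47e-05, 95% interval -1.65 to -1.17). The call held in all 14 alternative settings, with changes from -1.52 to -1.35.

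**Figure D3:**
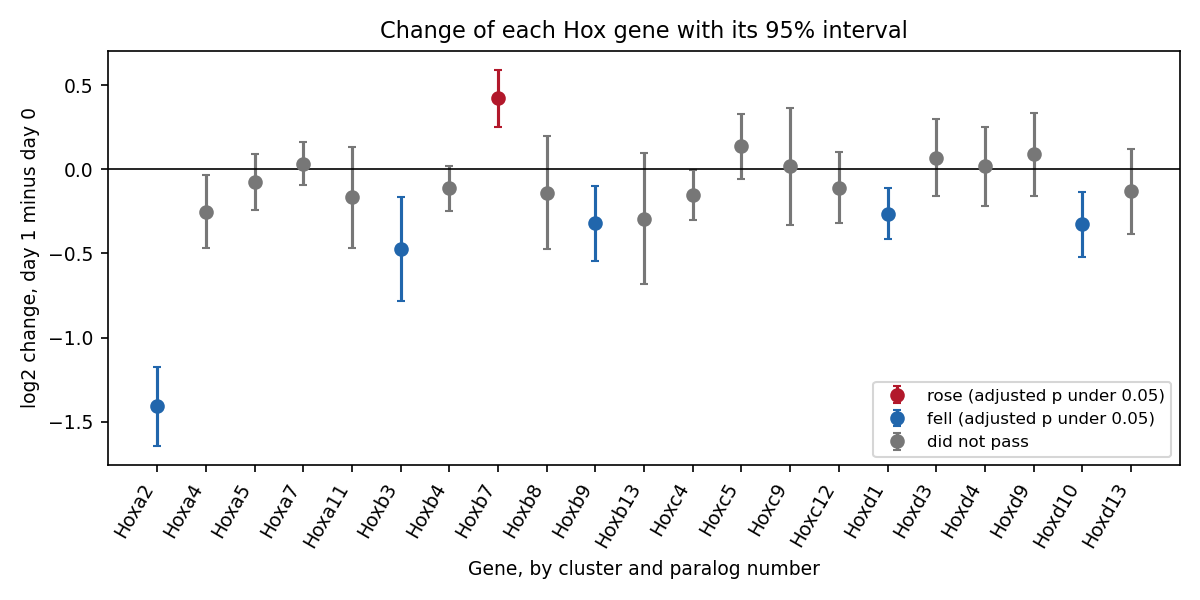
Change of each Hox gene on the log2 scale (day 1 mean minus day 0 mean, 3 arrays each) with its 95% limma interval, in cluster and paralog order; blue fell, red rose and grey did not pass an adjusted p of 0.05. Hoxa2 lies at -1.41, and the other 20 lie between -0.47 and 0.42.

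The other HoxA members passed no test. Hoxa4, which takes part in patterning the neck vertebrae, was at 6.55, 6.66 and 6.89 on day 0 and at 6.51, 6.42 and 6.42 on day 1. The groups did not overlap, but the lowest day 0 array and the highest day 1 array were close, and the change of -0.25 ± 0.09 missed the threshold (limma adjusted p = 0.0591). In 5 of 14 alternatives it was called, among them those with median-centred arrays (-0.32, adjusted p = 0.0298), with quantile normalization (-0.30, adjusted p = 0.0438) and the fit lacking the first day 0 replicate (-0.33, adjusted p = 0.0246). Hoxa5, which is needed for development of the lung and the neck and upper chest skeleton, was at 7.77, 7.86 and 7.68 on day 0 and 7.78, 7.66 and 7.64 on day 1. These ranges overlapped, and the interval of the change ran from -0.24 to 0.09. Hoxa7, a gene of the trunk, had the narrowest spread of all members, at 7.40, 7.43 and 7.41 on day 0 and 7.43, 7.45 and 7.47 on day 1. The interval of its change ran from -0.09 to 0.16. Hoxa11, a limb and uterus gene, lay below the olfactory 95th percentile on all 6 arrays, with a change of -0.17 ± 0.13 (limma adjusted p = 0.328).

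HoxB held calls in both directions. Hoxb7, the gene of this cluster with the same paralog number as Hoxa7, rose from 6.91, 7.06 and 6.84 on day 0 to 7.39, 7.31 and 7.36 on day 1. Every day 1 array lay above every day 0 array. The rise was 0.42 ± 0.07, a 1.34-fold difference (limma adjusted p = 0.00178), and it held in all 14 alternatives, from 0.33 to 0.49. It was the only member called upward. Hoxa7, its paralog, differed by 0.03 ± 0.05 (limma adjusted p = 0.644), and whether the paralogs differ in their change was not tested.

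Hoxb3, a gene of the hindbrain and pharyngeal region, was at 7.00, 7.44 and 7.17 on day 0 and at 6.90, 6.52 and 6.78 on day 1. The groups did not overlap, but both were widely spread, and the change was -0.47 ± 0.13 (limma adjusted p = 0.0195). The call was lost when day 0 replicate 2, the highest array, was left out (-0.36, adjusted p = 0.0554). It was also lost when day 1 replicate 2, the lowest array, was left out (-0.37, adjusted p = 0.0600). Hoxb4, known for its role in blood stem cells as well as in the axial skeleton, was at 7.63, 7.60 and 7.64 on day 0 and 7.57, 7.49 and 7.48 on day 1. The groups did not overlap, and the change of -0.11 ± 0.06 missed the threshold (limma adjusted p = 0.153). It passed with quantile normalization (-0.21, adjusted p = 0.0163) and with median centring (-0.18, adjusted p = 0.0306).

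The remaining HoxB rows were dim. Hoxb8, which is used in blood cell and sensory circuit development, was at 5.51, 5.40 and 5.99 on day 0 and 5.41, 5.51 and 5.56 on day 1, with overlapping groups and 1 high day 0 array. Hoxb9, a patterning gene of the rib cage, was at 4.74, 4.92 and 4.70 on day 0 and 4.38, 4.36 and 4.64 on day 1. All 6 of its values were under the olfactory 95th percentile, and the change of -0.32 ± 0.10 (limma adjusted p = 0.0255) lost its call in 5 of 13 alternatives. Leaving out day 0 replicate 2 gave -0.26 (adjusted p = 0.0813), day 1 replicate 1 gave -0.28 (adjusted p = 0.0798) and day 1 replicate 2 gave -0.27 (adjusted p = 0.0841). Quantile normalization gave -0.22 (adjusted p = 0.117). Hoxb13, a gene of the tail and prostate, lay under the olfactory 95th percentile on every array and changed by -0.29 ± 0.17 (limma adjusted p = 0.190).

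None of the 4 HoxC members was called by limma, and 1 had an unadjusted p under 0.05. That one was Hoxc4, a gene of the neck and upper chest level, at 6.72, 6.68 and 6.60 on day 0 and 6.55, 6.53 and 6.46 on day 1. The groups did not overlap, and the change was -0.15 ± 0.06 (adjusted p = 0.0821). It passed with quantile normalization (-0.20, adjusted p = 0.0254) and with median centring (-0.22, adjusted p = 0.0168). Hoxc5, its neighbour in the cluster, was at 4.79, 4.78 and 4.74 on day 0 and 4.81, 4.84 and 5.07 on day 1. Its groups did not overlap, with 4.79 as the highest day 0 value and 4.81 as the lowest day 1 value, and the change was 0.14 ± 0.08 (limma adjusted p = 0.213). Hoxc9, a gene that specifies the thoracic level of the spinal cord and rib cage, was at 4.77, 5.01 and 5.14 on day 0 and 4.78, 5.31 and 4.90 on day 1. Its values crossed the olfactory 95th percentile from array to array, and the interval of its change, -0.33 to 0.37, was wide. Hoxc12, a posterior gene, was at 5.14 ± 0.13 (SD, n = 3) on day 0 and 5.03 ± 0.12 (SD, n = 3) on day 1 (limma adjusted p = 0.362).

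In HoxD, 2 of the 6 members were called, both downward. Hoxd1, the member with the lowest paralog number and a gene of pain-sensing neurons, was at 6.17, 6.16 and 6.22 on day 0 and 5.88, 5.87 and 6.01 on day 1. The groups did not overlap, and the row went from above the median on every day 0 array to below it on all but 1 of the day 1 arrays. The change was -0.26 ± 0.06 (limma adjusted p = 0.0104), and it was called in all 14 alternatives. Hoxd10, which patterns the limb and the lumbar spinal cord, was at 4.19, 4.20 and 4.37 on day 0 and 4.04, 3.81 and 3.92 on day 1. The groups did not overlap, but all 6 values were under the olfactory 95th percentile. The change was -0.33 ± 0.08 (limma adjusted p = 0.0128), called in all 13 alternatives in which the row was tested. Hoxd3, Hoxd4, Hoxd9 and Hoxd13 had overlapping groups and changes from -0.13 to 0.09. Hoxd9, at 5.32, 5.33 and 5.27 on day 0, was at 5.52, 5.14 and 5.52 on day 1. It was called upward only without day 1 replicate 2, the low array (0.22, adjusted p = 0.0425).

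Most of the measured genes just outside HoxA, HoxC and HoxD rose, and none of those next to HoxB was called. The 3 nearest named protein-coding genes on each side of each cluster in the GRCr8 table gave 24 genes, of which 19 had a row. Of these 19, 12 rose and 2 fell (limma), against 27.6% and 20.7% of all genes, and 41.9% and 23.4% of the brighter ones. With quantile normalization 9 rose and 2 fell, and with median centring 11 and 3. The difference between flanks and members was not tested. Next to HoxA, Skap2, a gene for an adaptor protein of leukocytes, rose by 0.46 ± 0.06, Snx10, a vesicle sorting gene, by 0.51 ± 0.07, and the metabolic enzyme gene Hibadh by 0.24 ± 0.06. Next to HoxB, Atp5mc1 was at -0.03 ± 0.09, Skap1 at -0.16 ± 0.15 and Snx11 at -0.04 ± 0.08. Next to HoxD, the mitochondrial import gene Mtx2 rose by 0.29 ± 0.06 and Nfe2l2, the gene for the oxidative stress factor NRF2, by 1.22 ± 0.07. Atp5mc3, on the other side of HoxD, fell by 0.19 ± 0.06. Next to HoxC, the RNA-binding protein gene Hnrnpa1 rose by 0.67 ± 0.06, and Cbx5, the gene for a heterochromatin protein, was at -0.56 ± 0.07. Evx1 and Evx2, homeobox genes that close the HoxA and HoxD clusters at their 5′ ends, were at -0.22 ± 0.09 (limma adjusted p = 0.0721) and -0.29 ± 0.15 (adjusted p = 0.154).

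Among the partners of Hox proteins, Meis2 rose and Meis1 fell. Of the 9 measured members of the Pbx and Meis list, 3 rose and 3 fell (66.7% called, median -0.11), near the 65.4% called among brighter genes, to which 8 of the 9 belong. Meis2 went from 7.14 ± 0.12 to 7.93 ± 0.04 (SD, n = 3), a change of 0.80 ± 0.07. Meis1 went from 9.07 ± 0.05 to 8.70 ± 0.02 (SD, n = 3), a change of -0.37 ± 0.06. Pbx2 was at -0.22 ± 0.07 (limma adjusted p = 0.0427). Tgif1, a related homeobox repressor gene that also acts in TGF-beta signalling, rose by 2.91 ± 0.09 and its relative Tgif2 was at -0.57 ± 0.10. Pknox1, a further Meis relative, rose by 0.31 ± 0.07.

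Of 17 measured genes of the retinoic acid pathway, 4 rose and 10 fell (82.4% called, median -0.40). Of all genes 48.3% were called and of the brighter genes, to which 10 of the 17 belong, 65.4%, and the difference from them was not tested. Genes of retinoid handling enzymes led the falls: Dhrs3, a retinaldehyde reductase gene, was at -2.07 ± 0.08, Aldh1a1, a retinaldehyde dehydrogenase gene, at -1.82 ± 0.14, and Cyp26b1, which encodes an enzyme that breaks down retinoic acid, at -1.60 ± 0.10. Rdh10, an enzyme gene for the step from retinol to retinaldehyde, fell by 1.08 ± 0.07. Aldh1a3, another retinaldehyde dehydrogenase gene, went the other way and rose by 1.30 ± 0.12. Cdx2 and Cdx4, homeobox genes upstream of Hox genes in the embryo, were at 0.08 ± 0.09 and 0.16 ± 0.08 and passed no test. Their day 0 means, 4.91 and 4.35, were under the day 0 olfactory 95th percentile of 4.98, so these rows may hold little specific signal.

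Chromatin genes of the Polycomb and Trithorax systems were mostly called upward or not called. Of 24 Polycomb genes 13 rose and 2 fell (62.5% called, median 0.21). All 24 are brighter genes, of which 65.4% were called, 41.9% upward, so the share called is near the background. With quantile normalization it was 8 and 5, and with median centring 10 and 4, so the balance depends on the scaling. Pcgf6, a gene of a variant repressive complex, rose by 0.88 ± 0.09, Phf19 by 0.76 ± 0.14, Pcgf1 by 0.66 ± 0.10, and Ezh2, the gene for the histone methyltransferase of Polycomb, by 0.55 ± 0.10. Cbx6 was at -0.89 ± 0.06 and Cbx8 at -0.40 ± 0.06, both past the threshold. Of 13 measured Trithorax and related genes, histone demethylase genes among them, 7 rose and 0 fell by limma (0.51 ± 0.06 for Wdr5). That is 53.8% called, below the 65.4% of the brighter genes, to which all 13 belong. With quantile normalization 3 rose and 1 fell, and with median centring 4 and 1. The largest rise of the list, 1.75 ± 0.12, was that of Gmnn, the geminin gene, which is not itself a Trithorax component.

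**Figure D4:**
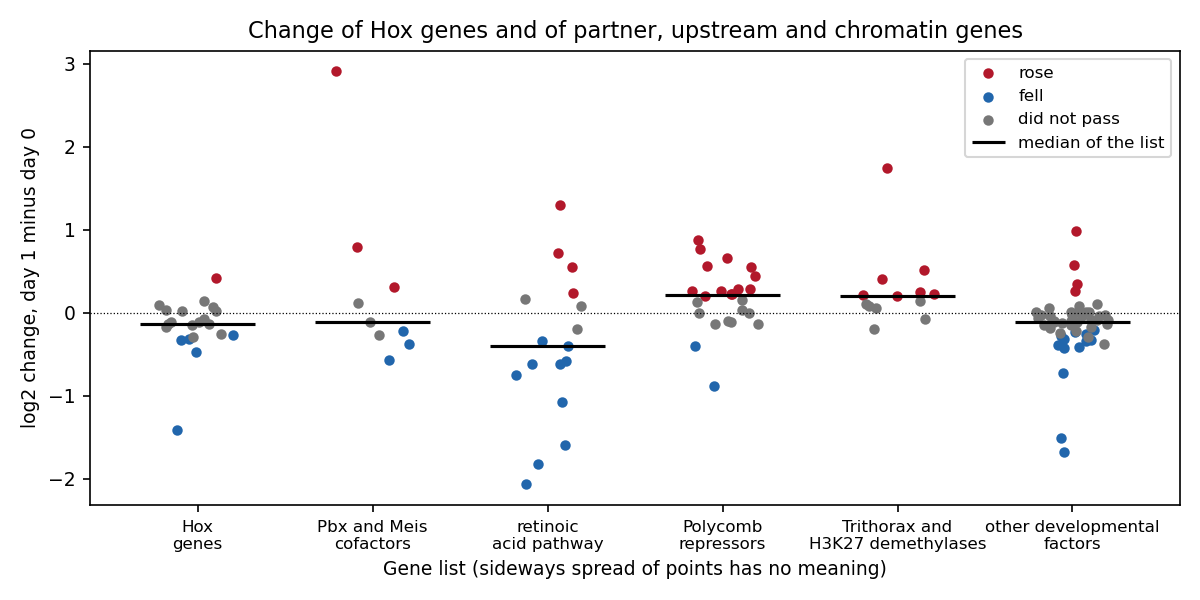
log2 change (day 1 minus day 0) of each measured gene in 6 lists, with 1 point per gene, red for rose, blue for fell and grey for not past an adjusted p of 0.05, and a black line at the median of each list. The Hox genes gather near their median of -0.13, and the retinoic acid genes spread from -2.07 to 1.30.

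Markers of the cells of the wall moved between the same groups. Of 9 smooth muscle markers 9 fell, and none was near background on day 0. The mean log2 value of the list went from between 11.57 and 11.66 on day 0 to between 7.97 and 8.16 on day 1. On day 1, Myh11, the smooth muscle myosin heavy chain gene, was the highest of the list at 10.64 ± 0.09 (SD, n = 3). Casq2 was the lowest, at 5.91 ± 0.22 (SD, n = 3) after 11.06 ± 0.13 (SD, n = 3) on day 0. Of 11 fibroblast and adventitial markers 3 rose and 8 fell (range of the list mean 10.27 to 10.36, then 9.85 to 9.94). Of 9 endothelial markers 7 rose and 2 fell (7.84 to 8.04, then 8.16 to 8.29), and of 10 macrophage and leukocyte markers 4 rose and 2 fell (8.35 to 8.44, then 8.67 to 8.85). Of 7 adipocyte markers 5 fell and 0 rose, and of 8 skeletal muscle markers 3 fell and 1 rose. Neuron and Schwann cell markers rose in 1 and fell in 1 of 5, and lymphatic and mesothelial markers rose in 2 and fell in 1 of 6. Of all genes 48.3% were called, and of the brighter genes 65.4%. The smooth muscle, fibroblast and endothelial lists were called in full (100%). The share was 60% for macrophage and leukocyte markers, 71.4% for adipocyte, 50% for skeletal muscle, 40% for neuron and Schwann cell and 50% for lymphatic and mesothelial markers. With quantile normalization 5 endothelial markers rose and 2 fell. The part of these marker shifts in the Hox changes was not tested. The mean over the 21 Hox members, for comparison, was between 5.82 and 5.92 on day 0 and between 5.67 and 5.71 on day 1.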

How the data were processed

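Biotin-labelled target was made from 200 ng of total RNA by Affymetrix's whole-transcript sense method, per the labels' protocols. The authors deposited log2 values for 27342 rows on 6 arrays, a scale inferred from their range, 1.32 to 14.16. Of tools, limma stands in the submitters' processing notes. How background, normalization and summarisation were done, and the genome build, was not given in the sources used here. The number of arrays limits the precision. Rows with exactly 1 array symbol (15097) were named through a GRCr8 gene table (15067 by gene ID); the row with the highest mean was kept per gene. All 21 Hox rows kept their array symbol.

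The test was lmFit with eBayes (limma 3.58.1 under R 4.3.3), two-sided, no block and no filter, with Benjamini-Hochberg adjustment over 14324 genes. Tables and figures used Python 3.11.15, pandas 2.3.3, numpy 2.4.6 and matplotlib 3.10.9. Values after ± are standard errors unless given as SD. On simulated data with 200 changed genes among 14324, the fit recovered 64.2% of genes changed by 0.5 log2 units and 92.5% of those changed by 1. In the real data 48.3% of genes were called, so the adjustment was stricter in the simulation. Its shares therefore do not give the share recovered in the real data. No pairing by replicate number was detected. Correlations of deviations were 0.011 to 0.036 for the same number and -0.054 to 0.036 for different numbers. This does not show that pools shared no animals.

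Members and lists were chosen with earlier results of these data known. All Hox genes and flank genes could be named; of other lists, up to 4 called members with the largest changes and the largest against the majority, of which a few are named. Genes named outside this rule (Pbx2, Pknox1, Rdh10, Cdx2, Cdx4, Ezh2, Cbx8, Myh11, Hhex and Prrx2) were chosen after their values were seen, as were the olfactory receptor reference and the split into brighter and dimmer genes. None of the Hox cluster microRNA list was matched to a named row. Alternatives were quantile normalization, median centring, a filter on dim genes, the mean or most variable row, all rows as features, a trended robust prior, a replicate block and leaving out each array.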

Additional observations from a re-analysis of the deposited data

How the results depend on the processing

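Of the 6 called Hox genes, Hoxa2, Hoxb7, Hoxd1 and Hoxd10 were called in the same direction in each alternative in which they were tested; the filter on dim genes removed Hoxb9, Hoxd10 and 5 uncalled rows and left 14 members. The count of called members was 8 with quantile normalization, 9 with median centring, 7 with an intensity trend and robust prior, 6 without the dimmest 25% of genes (where Hoxa4 and Hoxc4 passed), and 6 with the mean or most variable row, or with every row as a feature. Leaving out 1 array gave 4 to 7 called members. With the replicate number as a block, 4 were called, 1 upward and 3 downward; Hoxb3 (adjusted p = 0.0572) and Hoxb9 (adjusted p = 0.0552) were lost. The numbers share no stated source, so a call lost under the block is not read as a weaker effect. Of all genes, 6166 to 6506 were called with 1 array left out, and 6686 with the block. For the 5 measured partner, retinoid, chromatin and developmental factor lists together, 31 rose and 28 fell; with quantile normalization it was 22 and 30, and with median centring 24 and 34. No called change of a Hox gene reversed its direction. For dim rows, such as Hoxb9 and Hoxd10, log2 values close to background can understate a fold change where there is specific signal. Whether the rows of Hoxb9 and Hoxd10 hold specific signal was not tested. Their values lay under the 95th percentile of the olfactory receptor genes on every array.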

Other observations

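Developmental transcription factors outside the Hox clusters also went both ways, mostly by small amounts. Of 49 measured homeobox, T-box and other patterning genes, 4 rose and 13 fell (34.7% called, median -0.11), against 48.3% of all genes. Of the 49, 24 were above the mean array median in their mean over the 6 arrays, a level at which 65.4% of genes were called, against 21.9% of dimmer genes. Meox2, a homeobox gene of mesoderm and vascular cells, went from 7.58 ± 0.20 to 5.90 ± 0.05 (SD, n = 3), a change of -1.68 ± 0.10 (limma adjusted p = 5.42e-06). Osr1, a zinc finger gene of mesenchymal progenitors, was at -1.51 ± 0.07, and the mesenchymal homeobox gene Msx1 at -0.73 ± 0.12. Prrx1, a homeobox gene of limb and connective tissue mesenchyme, rose by 0.98 ± 0.07, and Hhex, a homeobox gene of endothelial and blood progenitors, by 0.58 ± 0.11. The closely related Prrx2 was at -0.03 ± 0.07 (limma adjusted p = 0.775).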
